A study of Homo sapiens with 2 samples.

Results

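Antibody-captured RNA of the genes that encode chromatin remodelling complexes was examined in HCCLM3, an established human line of hepatocellular carcinoma. The set comprised 38 genes, chosen by name for their membership of the SWI/SNF, ISWI, CHD and INO80 families and of related ATPase and ARID proteins. A peak was counted to a gene when its summit lay in the RefSeq span of that gene, and 205 of the 39801 peaks in the list did so. All 38 genes were found in the RefSeq gene table.

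The assay was m6A-seq, in which RNA fragments carrying N6-methyladenosine are captured with an antibody (RIP) and sequenced beside uncaptured RNA (input). Both libraries came from cells of wild-type genotype, with no treatment named, and each group held 1 library. There was thus no replicate and no comparison of conditions, and the values describe these libraries of 1 cell line. The study concerned the m6A reader YTHDF2 and the coactivator CRTC2, and this list gives the m6A pattern of the cell line used there.

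Chromatin remodellers use ATP to slide, evict or exchange nucleosomes, and most act as large assemblies in which an ATPase works with subunits that read histones or bind DNA. SWI/SNF mainly evicts and slides nucleosomes, ISWI spaces them, the CHD proteins include the ATPases of NuRD, and INO80 exchanges histone variants. Several SWI/SNF subunits, ARID1A and ARID2 among them, are recurrently mutated in hepatocellular carcinoma. The m6A mark is laid down in the nucleus by the METTL3 and METTL14 enzyme at the DRACH motif, and is typically found near stop codons, in 3' UTRs and in long internal exons.

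Sequence was examined only where a RefSeq start window of 300 bases overlapped a peak of a member, which was the case for peaks of ARID1A, ARID1B, CHD1 and SMARCD3. The peaks of CHD7 were left out of this search. A start window of their own was found for 30 of the 38 genes, and the sequences of exon and 3' UTR peaks were not analysed here. The letters GGACA, then GGACC and then GGACT, which are forms of the DRACH motif, were searched on both strands. On the strand of the remodelling gene, the shared bases held 1 match each in ARID1B, CHD1 and SMARCD3 and none in ARID1A, and on the other strand they held 0 in all 4. The stretches of 30 bases around the matches are shown because they lie inside called peaks; capitals mark the motif, and the build is GRCh38.p14 from RefSeq.
ARID1B, chr6:156778686-156778715, plus strand: gatcaacatggcGGACAacaaagccccggg
CHD1, chr5:98928481-98928510, minus strand: gatgtggcggagaGGACAggaaccggccgg
SMARCD3, chr7:151248645-151248674, minus strand: tgagagagcccagcaGGACTcagaggggag

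The central A of the motif lay 21 bp from the peak summit in SMARCD3, 72 bp in CHD1 and 488 bp in ARID1B. The ARID1B bases come from the start window of the lncRNA LOC115308161 the CHD1 bases from that of the divergent transcript CHD1-DT, and the ARID1A bases from that of LOC124900417, all read here on the strand of the remodelling gene. Shared bases were GC-rich, at 75.7% in ARID1B, 79.0% in CHD1, 68.6% in SMARCD3 and 76.7% in ARID1A. Over all 35116 RefSeq start windows of 300 bases, 58.7% held a match on the gene's strand and 82.3% on either strand. A match is thus common and is a description of the letters only. ARID1A, ARID1B and CHD1 shared all 300 bases of the window, but SMARCD3 shared 86, so these shares are not a like background for SMARCD3. The absence of a match in ARID1A says only that these letters are not in that window.

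Of the 38 remodelling genes, 34 held a peak (89.5%, 95% Wilson interval 75.9 to 95.8), where 49.3% of 20033 protein-coding genes did. At a q-value under 0.05 the numbers were 32 genes (84.2%, 69.6 to 92.6) against 39.0% of protein-coding genes, and at q under 1e-5 they were 29 genes (76.3%, 60.8 to 87.0) against 28.5%. The remodelling genes were long, with a median span of 84.9 kb (range 10.6 to 435 kb) against 24.1 kb for protein-coding genes, and long genes hold peaks more often. Among genes with a span of at least 50 kb, 26 of 27 remodelling genes held a peak (96.3%), against 68.9% of 6269 protein-coding genes. The corresponding shares at q under 0.05 were 24 of 27 (88.9%) and 54.1%. Of the 11 remodelling genes with shorter spans, 8 held a peak (72.7%, 43.4 to 90.3). The share over protein-coding genes of such spans was not worked out here, so these 8 are not compared with a background. The genes were not matched on RNA level, and its part in these shares was not tested.

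No summit lay in SMARCA5, the ATPase of most ISWI complexes, in SMARCB1 or SMARCD2, which are core SWI/SNF subunits, or in DPF2, a histone reader of the BAF form of SWI/SNF. SMARCA1, the other ISWI ATPase, and SMARCAD1, an ATPase of heterochromatin upkeep, held 1 peak each, of 3 RIP fragments and a q-value over 0.05. The list holds input levels at peaks alone, so the RNA level of the genes without a peak was not analysed here.

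Each peak carries the authors' fold, the ratio of RIP at the summit to a local input level. Before the ratio is taken, the RIP fragments are scaled by 0.642 and 1 is added to each side. The input level is often not a whole number, so it is not a plain count of input fragments at the summit. How many RIP fragments a peak holds, and its local input level, were worked out from the fold and p-value. The lowest input level, 0.246, was the same in these genes and over the whole list, and many peaks shared it. Ranges given in brackets after a fold are exact 95% Poisson intervals of the RIP fragments at a fixed input. They cover counting error of the RIP library only and leave out any spread between cultures; fragments may also be copies of the same molecule. The counting error of the input is left out too, so intervals that do not overlap do not by themselves show a difference, least of all at low input levels. The libraries are of bulk RNA, so a fold cannot tell how many cells, or what share of transcripts, carried the mark.

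The median fold of the 205 peaks was 3.89 (middle 50% from 2.75 to 5.54, range 1.3 to 18.9), beside 3.38 over the 30219 peaks in protein-coding spans. The remodelling peaks rested on more RIP fragments, with a median of 32 (range 2 to 222) against 12, and on a higher input level, with a median of 3.0 against 1.0. Of them, 146 (71.2%) had a q-value under 0.05 and 106 (51.7%) one under 1e-5, where the shares in protein-coding spans were 53.7% and 29.5%. Peaks per 100 kb of span numbered 4.49 in remodelling genes and 2.45 in protein-coding genes. The 8 genes with 10 or more peaks held 102 of the 205, while 7 genes held exactly 1.

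**Figure D1:**
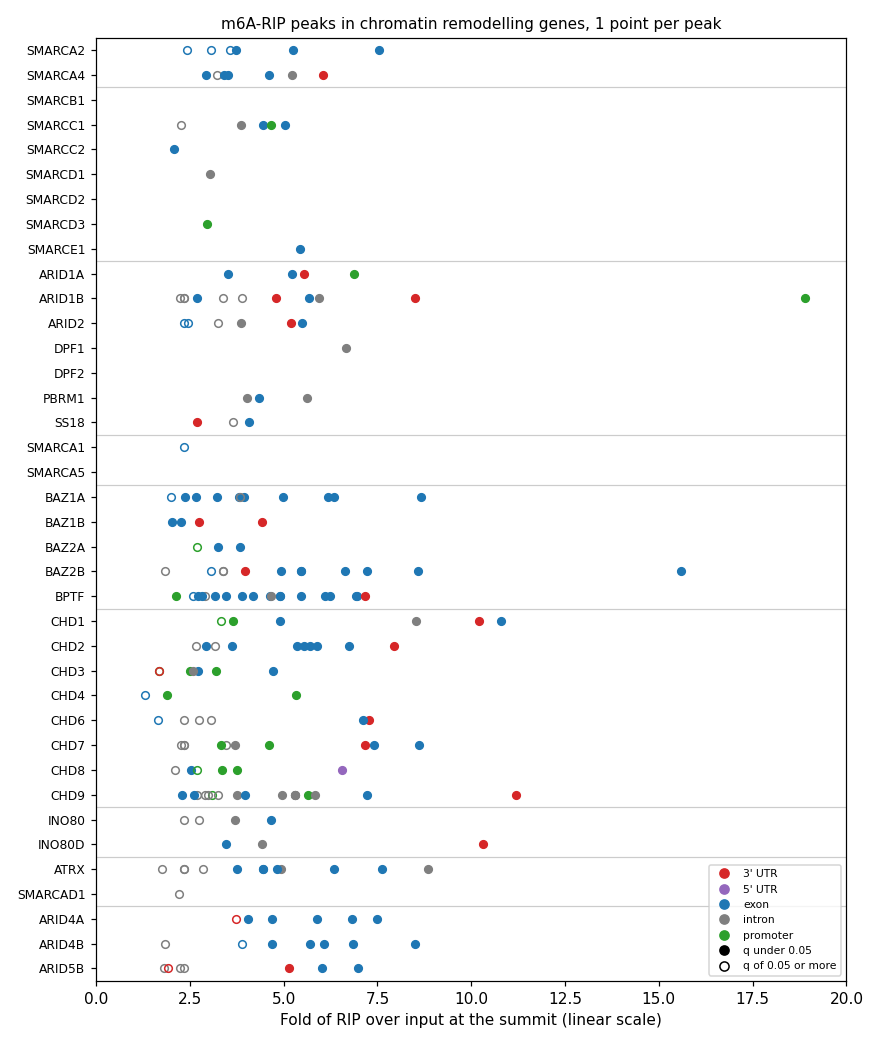
Fold of RIP over input (linear axis) of each peak in the remodelling genes, 1 row per gene, grouped by complex; colour gives the region label, and open points have a q-value of 0.05 or more. The ARID1B promoter peak at 18.9 and the BAZ2B exon peak at 15.6 stand farthest to the right, and 4 genes have no point.

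Exon was the most frequent region label. Of the 205, 103 were labelled exon (50.2%, 43.5 to 57.0), 61 intron (29.8%), 20 each 3' UTR and promoter (9.76%), and 1 5' UTR. Over protein-coding spans the labels were exon for 18.1%, intron for 44.4%, 3' UTR for 18.8% and promoter for 15.0%. Of the exon peaks, 99 lay in internal exons and 4 in the exon before the last. A promoter label takes precedence over the others, so such a peak can lie inside a transcript.

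The exon share was higher among the strongest peaks. At q under 1e-5 it was 69.8% (60.5 to 77.7) in remodelling genes beside 27.4% in protein-coding spans, while 3' UTR peaks made up 15.1% (9.51 to 23.1) beside 34.2%. Introns held 29.8% of all remodelling peaks and 3.77% of those at that limit, which left 4, in ARID1B, ATRX, CHD1 and DPF1. By label, 91 of 103 exon peaks (88.3%), 17 of 20 3' UTR peaks (85.0%) and 22 of 61 intron peaks (36.1%) had a q-value under 0.05. In protein-coding spans the shares were 71.6%, 79.0% and 32.8%. Intron peaks had a median of 7 RIP fragments, against 40 for exon peaks and 76 for 3' UTR peaks. The medians in protein-coding spans were 6, 25 and 33. Weak intron peaks are thus general to the list and not particular to the remodelling genes.

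The exon share was also read within classes of gene length and input level. In spans of at least 50 kb the exon share was 51.3% of 187 remodelling peaks and 17.3% of 20603 protein-coding peaks. At input levels of 3 or more it was 66.1% of 109 remodelling peaks and 28.8% of 9416 protein-coding peaks. Averaged over genes, so that each gene counts once, the exon share was 47.1% for remodelling genes with a peak and 17.0% for protein-coding genes with a peak. The median over the same remodelling genes was lower, 36.7%, and that over protein-coding genes was not worked out. BPTF, BAZ1A and BAZ2B together held 33 of the exon peaks, and without these 3 genes the share was 70 of 163 (42.9%, 35.6 to 50.6). The length of the exons themselves was not examined, and its part in the exon share was not tested.

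**Figure D2:**
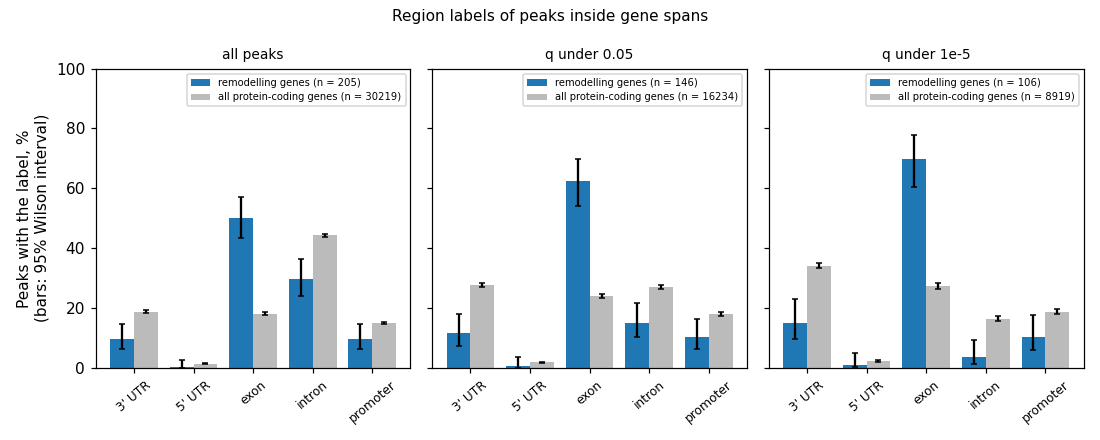
Share of peaks with each region label, in percent, for peaks in remodelling genes (blue) and in all protein-coding spans (grey), at 3 limits of the q-value; bars are 95% Wilson intervals. The exon share is 50.2%, 62.3% and 69.8% in remodelling genes from left to right, beside 18.1%, 24.2% and 27.4%.

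In 10 of the remodelling genes, peaks lay in at least 3 different exons (26.3%, 15.0 to 42.0), where 1.91% of the 20033 protein-coding genes had as many. The latter share is over genes with and without a peak, not matched on span, exon number or number of peaks. The part of these in the contrast was not tested. The 10 were SMARCA2, SMARCA4, ARID4A, ARID4B, CHD2, CHD9, BPTF, ATRX, BAZ1A and BAZ2B, and they held 71 of the 103 exon peaks. In several of them the exons were neighbours: exons 8 to 13 and 21 to 24 of BPTF, 7 to 9 and 14 to 17 of BAZ1A, 11 to 14 of ATRX, and 15 to 18 of both ARID4A and ARID4B. Peaks of neighbouring exons can hold fragments of the same RNA molecules, so they are not independent of each other.

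**Figure D3:**
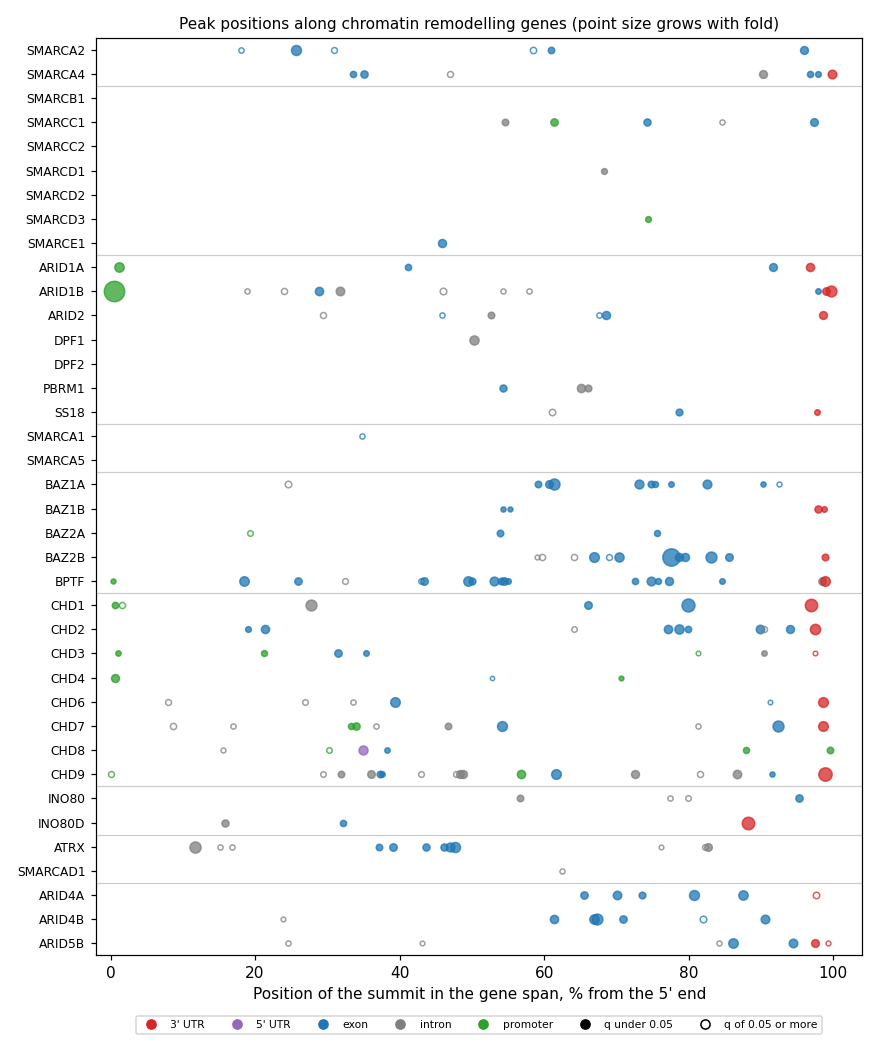
Position of each peak summit along its gene, in percent of the RefSeq span from the 5' end, 1 row per gene; colour gives the region label, point size grows with fold, and open points have a q-value of 0.05 or more. The exon peaks of BAZ1A, BAZ2B, BPTF, ATRX, ARID4A and ARID4B form runs inside the genes; SMARCC2 has a peak but no strand in the tables used, so it is not placed.

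The SWI/SNF ATPases SMARCA2 (BRM) and SMARCA4 (BRG1), of which each complex carries 1, differed in where their peaks lay. SMARCA2 held 6 peaks, all in exons, of which 3 had a q-value under 0.05; the highest, in exon 9 of 33 (chr9:2060878-2061246), had a fold of 7.54 (5.42 to 10.2) from 38 RIP fragments at an input level of 2.37. SMARCA4 held 7 peaks, of which 6 had a q-value under 0.05, and its highest lay in the 3' UTR (chr19:11061881-11062252) with a fold of 6.06 (4.78 to 7.57) from 74 fragments at an input level of 7.0. SMARCA4 also had peaks in exons 10 and 11 of 36, with folds of 3.51 and 4.62, and no 3' UTR peak was listed in SMARCA2. The intervals of the paralogues' highest folds overlap.

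Of the 7 core SWI/SNF genes 5 held a peak, where 49.3% of protein-coding genes did. They held 9 peaks in all, with a median fold of 3.87 and no 3' UTR peak. Their spans ran from 10.6 to 197 kb. Over the 38 genes, Spearman's rho between span and number of peaks was 0.76. SMARCC1 and SMARCC2, the paired scaffold subunits, held 5 peaks and 1. The highest of SMARCC1 lay in exon 27 of 28 (chr3:47590447-47590748; fold 5.04, 3.28 to 7.46; 22 fragments), and a promoter-labelled peak inside the gene had the most fragments, 100, at a fold of 4.65. The SMARCC2 peak, in exon 23 of 30 (chr12:56169387-56170156), had 116 fragments and a fold of 2.09 (1.74 to 2.51) at an input level of 35. The 2 scaffold genes thus had 100 and 116 fragments at their deepest peaks, with folds whose intervals (3.8 to 5.64 and 1.74 to 2.51) do not overlap. The intervals leave out the counting error of inputs of 13 and 35, and the peaks differ in region label. A difference between the 2 genes is therefore not shown.

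SMARCE1, which encodes the HMG-box subunit BAF57, held the highest fold of the core, 5.44 (3.8 to 7.57; 32 fragments), in exon 5 of 11 (chr17:40637222-40637519). The 3 SMARCD paralogues encode alternative BAF60 subunits. SMARCD1 had 1 peak in intron 10 of 12 (chr12:50095625-50095935) with a fold of 3.03 (1.99 to 4.45; 23 fragments). SMARCD3 had 1 promoter-labelled peak (chr7:151248399-151248730), the one whose motif stretch is shown above, with a fold of 2.96 (2.15 to 3.99; 40 fragments). Together with the lack of a peak in SMARCD2 and SMARCB1, this gave the core genes no fold above 5.44, where the median of the highest fold over the set was 6.61. All core genes but SMARCC1 held 1 peak or none, and a maximum over few values tends to be lower.

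Subunits that define one form of SWI/SNF held 28 peaks in 6 of 7 genes, beside 49.3% of protein-coding genes with a peak. The spans of these 7 genes ran from 18.7 to 435 kb, so their number of peaks is not matched to that of the core. ARID1A and ARID1B are mutually exclusive DNA-binding subunits of the BAF form. Both had a wide promoter peak and a wide 3' UTR peak. The ARID1A promoter peak (chr1:26696125-26697770, 1646 bp) had a fold of 6.88 (5.59 to 8.39) from 95 fragments at an input level of 8.0. The ARID1B promoter peak (chr6:156777797-156779098, 1302 bp) had the highest fold of all 205, 18.9 (15.2 to 23.3), from 87 fragments at an input level of 2.0. The RIP fragments of the paralogues were thus close in number, and the input level was lower in ARID1B. The summit of the ARID1B peak also lies in LOC115308161, whose reads cannot be told apart from those of ARID1B without strand.

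Further along these genes, the 3' UTR peak of ARID1A (1932 bp) had a fold of 5.53 (4.62 to 6.57; 127 fragments). Its counterpart in ARID1B was split into peaks of 8.49 (6.22 to 11.3; 43 fragments) and 4.79 (3.76 to 6.02; 70 fragments). ARID1B, the longest of the set at 435 kb, also held 6 intron peaks of 3 to 10 fragments, of which 1 had a q-value under 0.05. ARID1A held no intron peak, and its 4 peaks all had a q-value under 1e-5.

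ARID2 and PBRM1 belong to the PBAF form. The highest fold of ARID2 lay in exon 15 of 21 (chr12:45851472-45852919), a peak of 1448 bp with a fold of 5.49 (4.05 to 7.28; 45 fragments), and its 3' UTR peak had 5.2 (3.76 to 7.04; 39 fragments). PBRM1, which encodes a protein with an array of bromodomains, had its highest fold in intron 21 of 31 (chr3:52594116-52595347; 5.63, 3.43 to 8.83; 16 fragments) and a deeper peak in exon 20 of 32 with 39 fragments and a fold of 4.34. Among the BAF subunits, DPF1, a histone reader best known from neurons, held 1 peak in intron 3 of 11 (chr19:38220134-38220507; 6.67, 4.01 to 10.6; 15 fragments). SS18, the subunit fused in synovial sarcoma, had its highest fold in exon 10 of 11 (chr18:26032156-26032454; 4.08, 2.99 to 5.45; 43 fragments).

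The non-ATPase partners of ISWI, BPTF and the BAZ proteins, held the most exon peaks of any class in the set. These 5 genes carried 49 peaks, 37 of them in exons and 40 with a q-value under 0.05. Of the peaks in protein-coding spans, 18.1% were labelled exon and 53.7% had a q-value under 0.05. BPTF, BAZ1A and BAZ2B, with spans of 159, 123 and 397 kb, held 33 of the 37 exon peaks. The ATPases that these partners bind held 1 peak between them. BPTF, the histone reader of the NURF complex, had the most peaks of any member, 19, of which 15 lay in exons, spread over 13 of its 30 exons. Its exon folds ran from 2.59 to 6.96, and its highest fold lay in the 3' UTR (chr17:67982336-67983109; 7.18, 5.01 to 9.99; 32 fragments). The exon 2 peak was the deepest of the stronger ones, with 85 fragments and a fold of 6.94 (5.57 to 8.55).

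BAZ1A, the ACF1 subunit of the ACF and CHRAC complexes, had peaks in 10 of 27 exons and none in its 3' UTR. The highest lay in exon 9 (chr14:34799975-34800342) with a fold of 8.67 (7.02 to 10.6) from 93 fragments at an input level of 6.0. The peak of exon 8 had a lower fold of 4.98 (3.94 to 6.2; 76 fragments), at an input level of 9.0. These intervals do not overlap, but they leave out the counting error of inputs of 6.0 and 9.0, so a difference between the neighbouring exons is not shown.

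BAZ2B, a bromodomain protein of less known function, had peaks in 8 of 37 exons. Its exon 14 peak (chr2:159404557-159405097) had the second place in the set, with a fold of 15.6 (10.8 to 22.0), but from 30 RIP fragments at an input level of 0.296. The other exon peaks of BAZ2B had folds of 3.07 to 8.59, the latter in exon 25 with 52 fragments at an input level of 3.0. BAZ2A (TIP5), which silences ribosomal RNA genes in the NoRC complex, held 3 peaks and its highest in exon 3 of 29 (chr12:56614981-56615498; 3.83, 3.13 to 4.65; 100 fragments).

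BAZ1B (WSTF), a gene of the Williams syndrome region, showed the reverse of BAZ2B. Its 2 peaks in exon 7 of 19 had the highest input levels of all 205, 70 and 51, with 222 and 182 RIP fragments, and folds of 2.02 (1.76 to 2.3) and 2.26 (1.95 to 2.62). Its highest fold lay in the 3' UTR (chr7:73442026-73442352; 4.43, 3.62 to 5.36; 102 fragments at an input level of 14). This fold was above those of the exon peaks, with intervals that do not overlap. A second 3' UTR peak had a fold of 2.74 (2.2 to 3.39) from 84 fragments, and its interval overlaps those of both exon peaks. The intervals leave out the counting error of the input, so a difference between 3' UTR and exon is not shown.

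All 8 CHD genes held a peak with q under 1e-5, where 28.5% of protein-coding genes did. Their 65 peaks were the most of any family, with 21 in exons, 23 in introns and 14 labelled promoter. The spans of the CHD genes ran from 28.0 to 273 kb, so these numbers are not matched on span. CHD1 and CHD2 belong to the first CHD subfamily, which works on transcribed chromatin. CHD1 had folds of 10.8 (8.09 to 14.2; 49 fragments) in exon 31 of 37 (chr5:98868830-98869304), 10.2 (8.11 to 12.7; 78 fragments) in the 3' UTR and 8.52 (5.69 to 12.3; 25 fragments) in intron 2. It was the lone gene of the set with more than 1 peak of fold 10 or higher. CHD2 had 7 exon peaks with folds of 2.92 to 6.74 and its highest in the 3' UTR (chr15:93024435-93025300; 7.93, 6.37 to 9.78; 85 fragments).

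CHD3 and CHD4, the ATPases of NuRD, stood at the low end. Folds in CHD3 ran from 1.67 to 4.71, the highest in exon 5 of 40 (chr17:7893444-7893766; 3.97 to 5.56; 138 fragments at an input level of 18). CHD4 had folds of 1.3 and 1.89 at input levels of 45 and 49, and its highest was a promoter peak (chr12:6607031-6607329; 5.32, 3.72 to 7.41; 32 fragments at an input level of 3.05). The value of 1.3 was the lowest of the 205 and had a q-value over 0.05. Like BAZ1B and SMARCC2, these genes had many RIP fragments at a high input level.

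The third CHD subfamily, CHD6 to CHD9, includes CHD7, mutated in CHARGE syndrome, and CHD8, mutated in autism. CHD6 and CHD7 both had a strong peak in exon 3, of 37 and 38 exons in turn, with folds of 7.12 (6.12 to 8.24; 176 fragments) and 7.41 (6.13 to 8.89; 114 fragments). Their 3' UTR peaks were also close, at 7.27 (5.45 to 9.51; 50 fragments; chr20:41404457-41405402) and 7.16 (5.7 to 8.89; 79 fragments), and the paralogues' intervals overlap at both places. The highest fold of CHD7 lay in exon 31 of 38 (chr8:60853017-60853632; 8.61, 6.85 to 10.7; 79 fragments). At exon 31 of 37 CHD6 had a peak of fold 1.64 (1.09 to 2.39; 24 fragments) with a q-value over 0.05; whether these exons correspond between the genes was not examined.

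CHD8 held the lone peak labelled 5' UTR, which was also its highest (chr14:21431139-21431663; 6.55, 5.04 to 8.38; 60 fragments). No 3' UTR label was given in CHD8, but a promoter-labelled peak lay at 99.5% of its span from the 5' end, with a fold of 3.76. CHD9 held 17 peaks, of which 10 lay in introns, and the third-highest fold of the set, 11.2 (9.26 to 13.4), in its 3' UTR (chr16:53324242-53325147) from 114 fragments at an input level of 5.62. Its next highest, in exon 4 of 39, was 7.22 from 33 fragments.

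INO80, the ATPase of the complex of that name, held 4 peaks, and its highest lay in exon 31 of 35 (chr15:40985123-40985483; 4.67, 2.72 to 7.63; 13 fragments). INO80D, a metazoan-specific subunit, had its highest fold in the 3' UTR (chr2:206004309-206005373; 10.3, 8.41 to 12.5; 100 fragments at an input level of 5.33). The INO80D peak rests on more fragments, and the INO80 peak had an input level of 1.0.

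ATRX, which deposits histone H3.3 with DAXX at telomeres and repeats, held 12 peaks in exons 8, 9 and 11 to 14 of 34 and in introns. The exon 8 peak was the widest of the set, 3140 bp, with a fold of 3.75 (3.13 to 4.45; 127 fragments). Folds in the other 5 exons were 4.44 to 7.63. The highest of ATRX lay in intron 1 of 33 (chrX:77753137-77753773; 8.84, 5.76 to 13.1) and rested on 22 fragments at an input level of 0.71. No 3' UTR peak was listed in ATRX. SMARCAD1 had the single intron 9 peak of 3 fragments, with a fold of 2.21 (1.05 to 5.0), and SMARCA1 its peak in exon 12 of 25 with a fold of 2.35 (1.12 to 5.32).

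ARID4A and ARID4B, paralogues of the SIN3 histone deacetylase complex, showed runs of exon peaks over like-numbered exons. ARID4A had peaks in exons 15 to 18 and 20 of 24, with folds of 4.69, 5.9, 4.06, 7.5 and 6.83 in that order. ARID4B had peaks in exons 15 to 18 and 20 of 24, with folds of 6.85, 8.51, 4.69, 3.89 and 6.08, and in exon 11 with 5.7. The highest were exon 18 in ARID4A (chr14:58359136-58359476; 4.37 to 12.2; 13 fragments at an input level of 0.246) and exon 16 in ARID4B (chr1:235219519-235219909; 6.76 to 10.6; 78 fragments at an input level of 5.0). All of these peaks had q-values under 0.05 except exon 18 of ARID4B, which had 6 fragments. The input level of 0.246 at exon 18 of ARID4A is the lowest of the whole list. The ARID4A peak with the most fragments was that of exon 16, with 72.

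ARID5B, a partner of the PHF2 demethylase, had its highest fold in exon 8 of 10 (chr10:62069706-62070071; 6.98, 3.99 to 11.6; 12 fragments at an input level of 0.246, the lowest of the whole list). Its exon 9 peak had a fold of 6.03 (4.82 to 7.45; 83 fragments). A 3' UTR peak of 2700 bp, the second widest of the set, had a fold of 5.15 (4.33 to 6.09; 135 fragments). Of these 3 peaks, the deepest had the lowest fold and the narrowest interval; the other 4 peaks of ARID5B had 2 to 11 fragments, folds of 1.8 to 2.35 and q-values over 0.05.

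Taking the highest peak of each of the 32 genes with a q-value under 0.05, 16 were in exons, 7 in 3' UTRs, 4 in promoters, 4 in introns and 1 in a 5' UTR. Over the 34 genes with any peak, the median of the highest fold was 6.61, beside 4.73 over 9879 protein-coding genes with a peak; the remodelling genes had more peaks each, with a median of 6 against 2, and a maximum over more values tends to be higher. A fold of 10 or more was reached by 6 peaks in ARID1B, BAZ2B, CHD9, CHD1 and INO80D, at input levels of 0.296 to 5.62. A 3' UTR peak was held by 17 of the 38 genes, with q under 0.05 in 15, where 24.6% and 20.3% of the protein-coding genes held one.

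**Figure D4:**
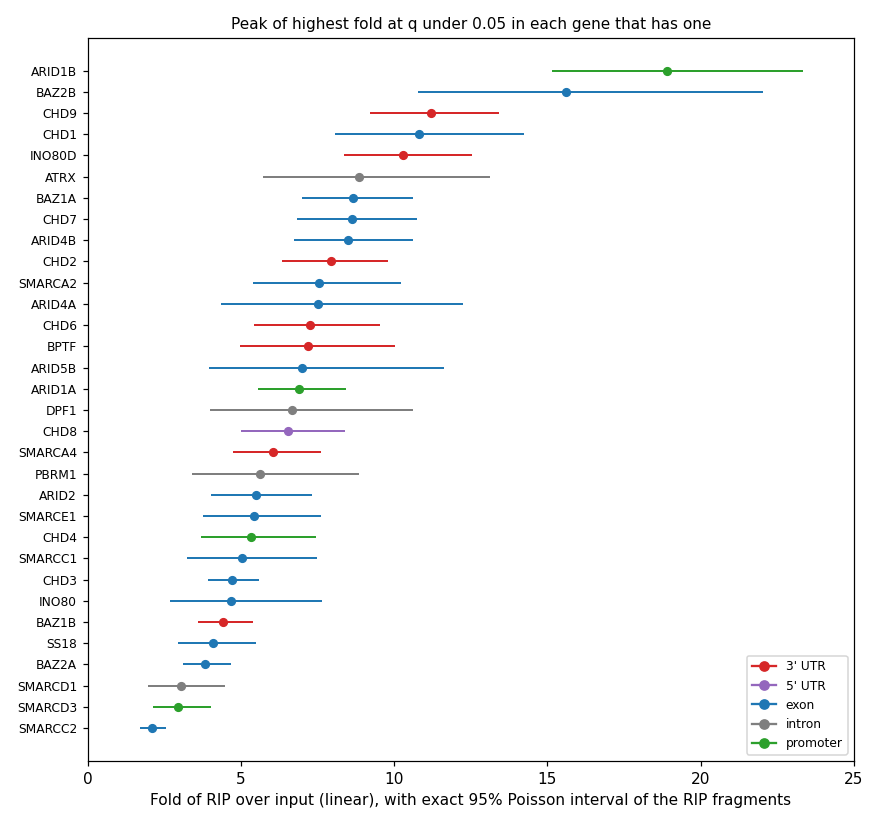
Highest fold among peaks with a q-value under 0.05 in each of the 32 genes that hold one (linear axis), with exact 95% Poisson intervals on the RIP fragments and colour by region label. The interval of ARID1B (15.2 to 23.3) lies above those of all other genes shown except BAZ2B (10.8 to 22.0).

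Over all 205 peaks Spearman's rho between fold and input level was -0.0067, as a description across peaks that share both libraries and whose fold itself contains the input. Over the 146 peaks with q under 0.05 it was -0.53; that limit keeps a peak of low input only if its fold is high, so the filter itself brings in a negative relation. The 13 peaks at an input level of 20 or more, in 9 genes including BAZ1B, CHD4 and SMARCC2, had folds of 1.3 to 3.75 from 66 to 222 RIP fragments, and 10 of them had a q-value under 0.05. At the other end, 11 of the 14 peaks with 3 fragments shared the fold 2.35 at an input level of 0.246; these lay in 8 genes and 9 of them in introns. A ranking by fold and a ranking by fragments thus name different genes.

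**Figure D5:**
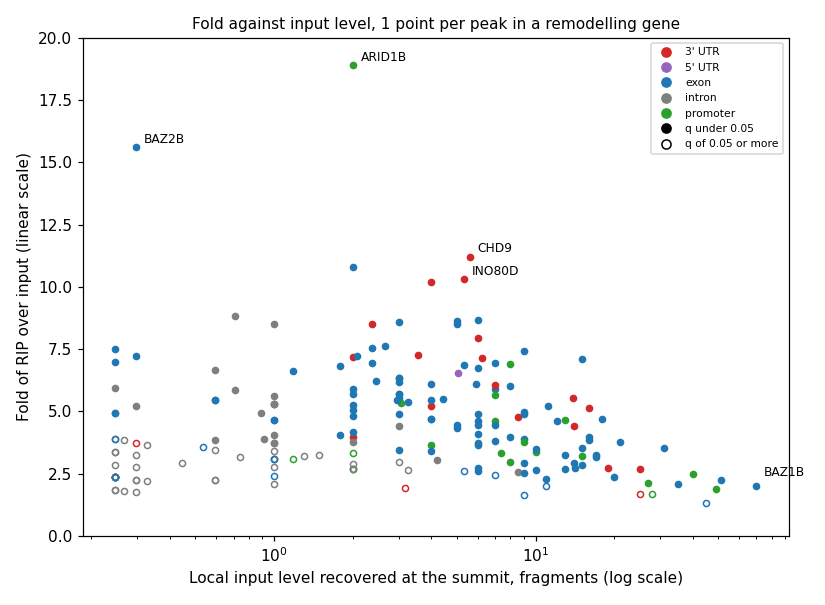
Fold (linear axis) against the local input level in fragments (log axis) for the 205 peaks, coloured by region label; open points have a q-value of 0.05 or more. Folds of 10 or more occur at input levels of 0.296 to 5.62, and the 2 exon peaks of BAZ1B lie farthest right, at 51 and 70, with folds of 2.26 and 2.02.

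The q-value limit of 0.05 corresponds to 1.3 on the -log10 scale. The nearest values above it were 1.43, at intron peaks of INO80 and CHD7, and the nearest below it were 1.27, at 5 peaks in ARID1B (2), ARID2, ARID4B and BAZ2B.

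The authors' deposited table gives, beside every peak, the identifier of whichever gene starts closest, with None as its symbol at 28 of the 205 peaks. That gene was the remodelling gene for 92 of the 205 peaks (44.9%) and for 4 of the 20 3' UTR peaks. Of the genes that held a peak, 11 were named for none of their own: SMARCC1, SMARCC2, SMARCD1, ARID4A, ARID4B, PBRM1, CHD1, CHD2, BAZ1A, BAZ1B and BAZ2B. The exon and intron labels point the other way, since all 164 of them cite a transcript of the remodelling gene. For 8 peaks the summit also lies in another gene, and a peak has no strand in the table; they are in ARID1B, ARID4A, CHD1, CHD3, CHD8, SMARCA2 and CHD4 (2).

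Of 59 other remodelling genes, 8 of them single remodellers and partners and the rest linked to these complexes, 38 held a peak (64.4%, 51.7 to 75.4), beside 49.3% of protein-coding genes. At q under 0.05 they were 35 (59.3%) beside 39.0%, and the peaks numbered 131. Their spans had a median of 41.5 kb. By group, 10 of 14 SWI/SNF, 6 of 13 NuRD, 2 of 5 ISWI and 13 of 19 INO80 and SRCAP genes held a peak, as did 7 of 8 single remodellers and partners. The highest folds were 15.6 (12.3 to 19.5) at the promoter of ERCC6, a DNA repair ATPase, and 9.72 (6.93 to 13.3) in the 3' UTR of ACTR5, an actin-related INO80 subunit. Genes without a peak included the histone-binding RBBP4 and RBBP7, the deacetylase HDAC2, the NuRD subunits MTA1 and GATAD2B, the actin-like ACTL6A, the helicase RUVBL2 and DAXX, the partner of ATRX.

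Markers of the cell line's origin were read from the same list, in which a peak shows antibody capture and not RNA level. Of 9 hepatocyte and hepatocellular carcinoma markers, HNF4A (6 peaks, highest fold 11.5), APOB (4 peaks, 8.53) and KRT8 (1 peak, with a q-value over 0.05) held a peak, and none was listed in ALB, AFP, GPC3, TTR, SERPINA1 or KRT18. Of the 3 progenitor or biliary markers SOX9 held one, of the 2 endothelial markers PECAM1 did, and none lay in the 3 leukocyte or 3 stromal markers. The labelled tissue can therefore be neither borne out nor contradicted from peaks alone. The sources used here do not give the number of reads of either library. The caller's scaling of 0.642 puts the RIP library at 1.56 times the input.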

How the data were processed

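HCCLM3 cells gave 1 m6A-RIP and 1 input library. Per the submitters' processing notes, HISAT2 was used for alignment, MACS2 for peak calling and hg38 as the build; their versions and settings, and how duplicates were handled, were not given in the sources used here. From these, 1 annotated peak list was deposited. Per the file headers, the fold in it is a linear ratio, RIP over input. Columns with damaged headers were read as the authors' −log10 p-value and −log10 q-value from their values: the deposited score is 10 times the first, rounded down, in 99.99% of peaks.

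Peaks were assigned to genes by summit, with RefSeq spans of GRCh38.p14, the assembly of hg38. RIP fragments and the local input level were recovered as the whole number of fragments that meets both fold and p-value. A number was found within 0.001 on the −log10 p scale for 100% of 39801 peaks, and for 201 of the 205 remodelling peaks by 1 number alone. The recovery was tested on simulated data. Exact 95% Poisson intervals and Wilson intervals were computed with Python 3.11.15, scipy 1.17.1 and pandas 2.3.3. Strand came from the RefSeq start windows, then from the strand the authors gave for the nearest gene, and then from the order of labelled exons.

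With 1 library per group no test between conditions was made and no p-value was computed. Every member is named, with its highest-fold peak at q under 0.05; other peaks are named at q under 1e-5, for the widest peak or as ranges. Peaks with q of 0.05 or more are named for members with no other, beside the limit, and, chosen after their values were seen, in CHD4, CHD6, ARID4B and BAZ2B, as was the ARID4A exon 17 peak, whose q-value lies between the limits. Members, classes, markers and the list of other remodelling genes were chosen with earlier results of these data known. Alternatives were stricter q-value, fold and fragment limits, leaving out intron peaks, and the authors' nearest gene, and other rules for the overlap of peak and span.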

Additional observations from a re-analysis of the deposited data

How the results depend on the processing

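Of 67 values recomputed under 9 alternatives, 50 stayed within their counting interval or within 1.5 times the count, and 17 moved. Exons and UTRs held 60.5% of the remodelling peaks (53.7 to 66.9), and 74.7% at q under 0.05, 85.8% at q under 1e-5, 78.4% at a fold of at least 4, 86.1% without intron peaks and 49.5% by the authors' nearest gene. The intron share of 29.8% became 15.1%, 3.77%, 15.5% and 37.1% under those alternatives other than the removal of intron peaks, which leaves no value. The median fold of 3.89 became 4.92, 5.45, 5.68 and 4.63 under the first 4. The 205 peaks became 106 at q under 1e-5, 97 at a fold of at least 4 and 105 by nearest gene, of which 92 were shared. The 38 other remodelling genes with a peak became 23 at q under 1e-5. The limits on q and fold select on the value reported, so they raise the median fold by construction. They can also only lower the counts of peaks and genes. Leaving out intron peaks can only raise the share in exons and UTRs. The cause of the other shifts was not tested. An alternative chosen after seeing the data, without BPTF, BAZ1A and BAZ2B, gave 54.6% in exons and UTRs. No paired analysis was possible because each group holds 1 library and the result comes from no test. Low fragment numbers limit the intron peaks most.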
